A study of Saccharomyces cerevisiae with 6 samples.

Results

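The RNA of 7 yeast ADE genes and the 3 IMD genes was followed across a wild type and 2 mutants, casein kinase 2 (ck2ts) and the histone chaperone Spt6 (spt6-7SA). The genes were taken by locus tag, and all 10 were found among the 7126 genes counted: ADE1 (YAR015W), ADE4 (YMR300C), ADE5,7 (YGL234W), ADE6 (YGR061C), ADE12 (YNL220W), ADE13 (YLR359W), ADE17 (YMR120C), IMD2 (YHR216W), IMD3 (YLR432W) and IMD4 (YML056C). The study asks, by its title, how casein kinase 2 acts through Spt6 on histones and on spurious transcription. Strand-specific total RNA of *Saccharomyces cerevisiae* was sequenced in 6 libraries, 2 per group, after growth in YPD at 30 °C and 2 h at 39 °C.

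All 3 groups were mat a strains isogenic to S288C, each with leu2D1, lys2-128d and a deletion of bar1. WT carried bar1D::NAT and, at ura3-52, the insert HHF1-PGAL1/10-FLAG-HHT1-URA3. The ck2ts strain shared these alleles and added cka1<delta>0::KanMX6 and cka2D225N::NAT, a deletion of one catalytic subunit gene and an altered allele of the other. The spt6-7SA strain had bar1D::KanMX6, his3D200, ura3<delta>0 and IWS1-13MYC::HIS3, and spt6D::kanMX6 covered by pcc11, a CEN URA3 plasmid with FLAG-spt6 7S-A. It thus differed from WT at more loci than SPT6, and lacked the histone insert, so in its differences from WT the spt6 allele and the other alleles cannot be told apart. Each group is 1 strain. The labels name no separate cultures for its libraries. The p-values therefore rest on the spread between these libraries, which may be technical.

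On build R64 of the genome the 7 ADE genes lie at chrI:169375-170295 (ADE1, plus strand), chrXIII:865559-867091 (ADE4, minus), chrVII:56482-58890 (ADE5,7, plus), chrVII:611889-615965 (ADE6, minus), chrXIV:234413-235714 (ADE12, plus), chrXII:844282-845730 (ADE13, plus) and chrXIII:507502-509280 (ADE17, minus). IMD2 lies at chrVIII:554396-555967 (plus), 6676 bases from the end of its chromosome, IMD3 at chrXII:1002557-1004128 (plus) and IMD4 at chrXIII:162194-164176 (minus). IMD4 has 2 exons and the other 9 genes have 1.

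Purine nucleotides are built from phosphoribosyl pyrophosphate (PRPP) in a chain of reactions that ends at inosine monophosphate (IMP). ADE4, ADE5,7, ADE6, ADE1, ADE13 and ADE17 encode enzymes of that chain, and in yeast many of its genes are activated by Bas1 with Pho2. IMP is then turned into AMP by ADE12 and ADE13, or into the GMP precursor by IMP dehydrogenase, the product of the IMD genes, followed by GUA1. IMD2 is known as the inducible copy: it rises when guanine nucleotides run short, through the choice of transcription start and early termination upstream of the gene.

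TGACTC, the core bound by Bas1 and by Gcn4, was searched on both strands of the 300 bases from 250 before to 50 after each annotated gene start. It occurred in 5 of the 7 ADE windows and in 0 of the 3 IMD windows, against 478 of 5987 such windows genome-wide, or 7.98%. The 5 ADE stretches are shown because they are what several of these promoters share. They were read from the RefSeq R64 reference genome, with the match in capitals in either orientation, 5′ to 3′ on the strand of the gene, at chrI:169137-169175 (plus strand), chrVII:56253-56315 (plus), chrXIV:234179-234208 (plus), chrXII:844054-844083 (plus) and chrXIII:509440-509469 (minus).
ADE1: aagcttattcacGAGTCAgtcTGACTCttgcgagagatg
ADE5,7: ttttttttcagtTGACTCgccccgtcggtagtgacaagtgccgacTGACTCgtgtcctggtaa
ADE12: atccttttcattGAGTCAcagattaacaaa
ADE13: cctccgcgagcaGAGTCAaacttcaaacaa
ADE17: ccagaaatgaatTGACTCctctcataactt
The matches lay 226 to 177 bases before the start codon. ADE1 and ADE5,7 each held 2. These letters were not found in the windows of ADE4 and ADE6.

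The IMD genes resemble each other closely enough for short reads to be shared. Over aligned bases, IMD2 and IMD3 were 88.9% identical, IMD3 and IMD4 82.7%, and IMD2 and IMD4 79.8%. YAR073W and YAR075W, which the reference annotation describes as the paralog of IMD2, were 97.0% and 96.2% identical to it over the part they cover. The first 60 bases of the coding sequence show how the copies differ at the 5′ end, with bases that differ from IMD2 in capitals, at chrVIII:554396-554455 (plus), chrXII:1002557-1002616 (plus) and chrI:227742-227801 (plus).
IMD2: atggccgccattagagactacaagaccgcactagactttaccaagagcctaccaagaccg
IMD3: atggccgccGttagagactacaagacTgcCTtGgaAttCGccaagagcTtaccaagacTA
YAR073W: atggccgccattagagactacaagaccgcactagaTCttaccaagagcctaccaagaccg
In this stretch IMD3 differed from IMD2 at 11 bases and YAR073W at 2. A second stretch of 60 bases, inside the gene, shows the opposite case, at chrVIII:554716-554775 (plus), chrXII:1002877-1002936 (plus), chrI:228062-228121 (plus) and chrXIII:163794-163853 (minus).
IMD2: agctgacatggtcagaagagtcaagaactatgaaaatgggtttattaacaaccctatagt
IMD3: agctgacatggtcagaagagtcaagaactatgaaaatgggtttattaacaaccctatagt
YAR073W: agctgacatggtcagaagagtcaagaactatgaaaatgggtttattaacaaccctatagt
IMD4: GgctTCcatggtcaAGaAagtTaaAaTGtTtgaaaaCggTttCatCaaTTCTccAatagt
Here IMD2, IMD3 and YAR073W were the same in all 60 bases, so a 50-base read from any of them could not be assigned to one, while IMD4 differed at 20.

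Over the whole gene, 513 of the 1523 possible 50-base stretches of IMD2 (33.7%) occurred elsewhere in the genome. YAR073W or YAR075W held 443 of them and IMD3 held 122. The shares were 16.6% for IMD3 and 7.24% for IMD4, and 0 for each of the 7 ADE genes. The first 10% of IMD2 had 0 shared stretches among 109, and the last 10% had 1 among 108. How the authors counted reads with several matches is not given in the sources used here. IMD values below are therefore uncertain over the whole gene, and the reads of the end parts are given beside them.

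Sense reads per library numbered 56307173 to 83375420 and antisense reads 2799589 to 3876104. Reads of the deleted CKA1 numbered 4970 and 3504 in the WT libraries, 202 and 100 in those of ck2ts, and 3289 and 3858 in those of spt6-7SA. SPT6, whose product is expressed from a plasmid in spt6-7SA, had 386 and 346 CPM (reads scaled to a common library size) in the WT libraries, 239 and 261 in those of ck2ts, and 511 and 423 in those of spt6-7SA. The 6 listed a-cell genes summed to 413 to 518 CPM in WT, 317 to 331 in ck2ts and 732 to 786 in spt6-7SA, and the 4 alpha-cell genes to 39.8 to 43.0, 96.8 to 108 and 67.7 to 73.5. By edgeR 5 of the a-cell genes fell and 1 rose in ck2ts, 3 rose in spt6-7SA, and the 4 alpha-cell genes rose in both. Of all genes tested 32.3% fell and 32.5% rose in ck2ts, and 26.7% rose in spt6-7SA. Of 8 genes of the mitochondrial genome 7 were tested, and 6 fell in ck2ts, where ATP6 and VAR1 had no reads and COX1, COB, COX3 and OLI1 had under 1 CPM. COX2 had 296 and 2692 CPM there and did not pass, and ATP8 was too low to test. The summed level of the 8 was 1018 to 1116 in WT, 297 to 2692 in ck2ts and 1025 to 1299 in spt6-7SA. Whether these differences between the strains had a part in the purine gene values was not tested.

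Levels of different genes were compared as sense CPM per kilobase of exon. In WT the order ran from IMD4 (428 ± 14.98, SD, n = 2) and IMD3 (424 ± 3.71), whose libraries overlapped, through ADE5,7 (178 ± 4.14) and ADE6 (157 ± 8.35) to ADE12 (152 ± 10.1), ADE13 (131 ± 0.980) and ADE1 (123 ± 1.66). ADE4 (89.9 ± 5.03), ADE17 (66.8 ± 1.21) and IMD2 (32.9 ± 2.80) had the lowest levels. ADE6 and ADE12 also overlapped, and the libraries of the other neighbours in that order did not. IMD2 was the lowest of the 10 in WT and in ck2ts (21.5 ± 1.81) and the fifth in spt6-7SA (133 ± 4.30). In spt6-7SA the lowest were ADE13 (48.9 ± 0.0703) and ADE17 (41.9 ± 0.254).

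**Figure D1:**
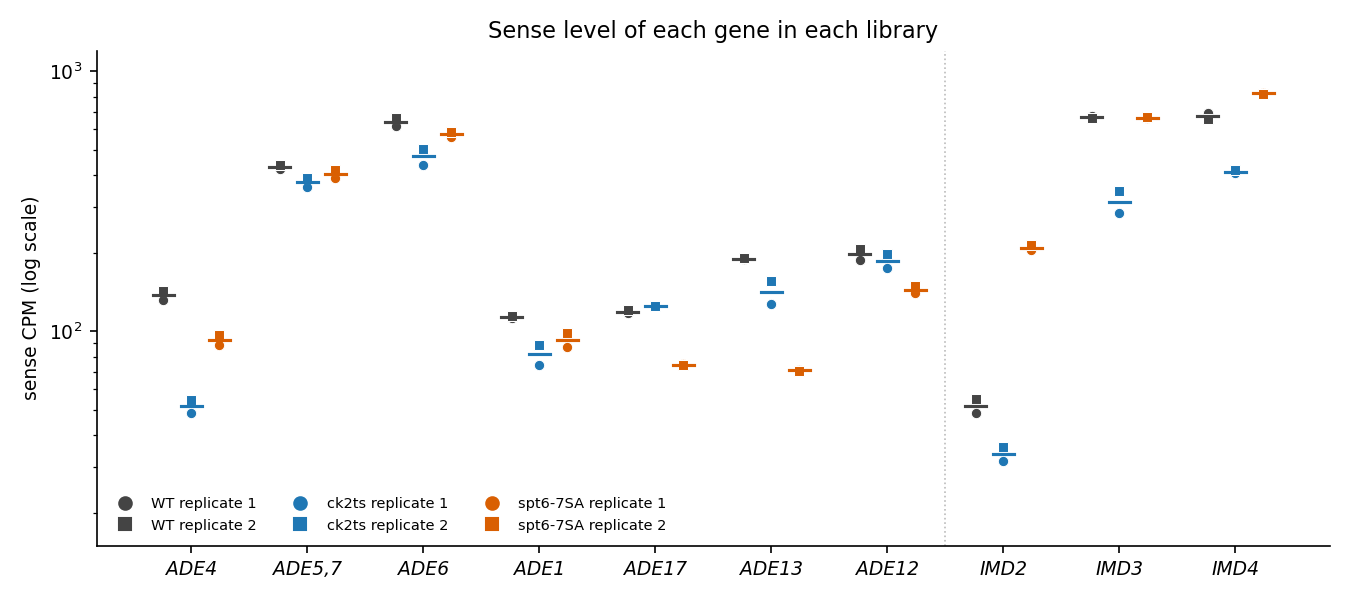
Sense level (CPM, log axis) of the 7 ADE genes and the 3 IMD genes in each of the 6 libraries. Each point is 1 library, circles replicate 1 and squares replicate 2, and bars are group means. The spt6-7SA libraries are the highest for IMD2 (205 and 214 CPM) and the lowest for ADE13 (70.9 and 70.7 CPM).

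In ck2ts, 7 of the 10 genes fell against WT on the sense strand, 0 rose and 3 did not pass, with edgeR's quasi-likelihood test at an adjusted p of 0.05. Among all 6776 genes tested, 32.3% fell and 32.5% rose. The 7 were ADE4, ADE1, ADE6 and ADE13 and all 3 IMD genes. The median log2 fold change was -0.46 over the 10 and 0.02 over all genes tested. In spt6-7SA, 4 fell (ADE13, ADE17, ADE4 and ADE12), 2 rose (IMD2 and IMD4) and 4 did not pass, beside 24.1% of all genes that fell and 26.7% that rose. The median was -0.22 over the 10 and 0.02 over all genes. Both comparisons use the same WT libraries. The libraries of ck2ts and WT overlapped for 1 of the 10 genes and those of spt6-7SA and WT for 1, and groups did not overlap for 81.3% and 78.7% of all genes tested.

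The chain to IMP opens with ADE4, the PRPP amidotransferase of its first committed step, which had the largest fall of the 10 in ck2ts. ADE4 had 132 and 143 CPM in the WT libraries, 48.5 and 54.4 in those of ck2ts, and 88.6 and 97.0 in those of spt6-7SA. The 3 groups did not overlap, with ck2ts lowest and spt6-7SA between. Its log2 fold change was -1.42 ± 0.10 (SE; edgeR adjusted p = 2.5e-05) in ck2ts and -0.57 ± 0.10 (edgeR adjusted p = 0.0028) in spt6-7SA.

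ADE5,7, which encodes the bifunctional enzyme of the next step and of a later one, changed in neither mutant by this test. It had 422 and 436 CPM in the WT libraries, 359 and 391 in those of ck2ts, and 390 and 418 in those of spt6-7SA, with no overlap between WT and either mutant. The log2 fold changes were -0.19 ± 0.10 (edgeR adjusted p = 0.11) and -0.09 ± 0.10 (edgeR adjusted p = 0.49). The reads of its 5′ end part alone were lower in ck2ts, with a log2 fold change of -0.52 (edgeR adjusted p = 0.025), an alternative chosen after seeing the data. Over all 6007 genes tested on that part in ck2ts, the median was -0.12, with 1328 lower and 1000 higher.

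ADE6 encodes the amidotransferase that acts between the steps of ADE5,7, and ADE1 the enzyme that joins aspartate to the growing purine. ADE6 had 615 and 663 CPM in the WT libraries, 438 and 504 in those of ck2ts, and 561 and 586 in those of spt6-7SA. It fell in ck2ts by 0.44 ± 0.11 on the log2 scale (edgeR adjusted p = 0.011). Without WT replicate 2 the value was -0.39, at an edgeR adjusted p of 0.058, the highest over 12 other settings and left-out libraries (from 3.0e-04). In spt6-7SA its log2 fold change was -0.16 ± 0.11 (edgeR adjusted p = 0.28). WT was the highest group for this gene and the groups did not overlap.

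ADE1 had 112 and 115 CPM in the WT libraries, 74.2 and 88.9 in those of ck2ts, and 87.3 and 98.7 in those of spt6-7SA. WT was above both mutants, which overlapped each other. The fall in ck2ts was 0.48 ± 0.11 on the log2 scale (edgeR adjusted p = 0.0070). In spt6-7SA the log2 fold change was -0.29 ± 0.11, at an edgeR adjusted p of 0.066. It passed with the replicate block (-0.29, edgeR adjusted p = 0.0058) and without ck2ts replicate 1 or 2 (edgeR adjusted p = 0.032 and 0.033), and adjusted p ran up to 0.32 over 12 other settings.

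ADE17, one of the isozymes of the last steps to IMP, fell in spt6-7SA. It had 117 and 120 CPM in the WT libraries, 125 and 125 in those of ck2ts, and 74.8 and 74.1 in those of spt6-7SA. The log2 fold change was -0.67 ± 0.08 (edgeR adjusted p = 6.9e-04) in spt6-7SA and 0.07 ± 0.08 (edgeR adjusted p = 0.43) in ck2ts. The isozyme ADE16 ranged from 230 to 255 CPM in WT and from 185 to 212 in spt6-7SA, a fall of 0.29 ± 0.10 on the log2 scale (edgeR adjusted p = 0.048). In spt6-7SA against ck2ts ADE17 was lower by 0.75 ± 0.08 on the log2 scale (edgeR adjusted p = 2.7e-04).

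ADE13, the adenylosuccinate lyase used both on the way to IMP and from IMP to AMP, fell in both mutants. It had 189 and 192 CPM in the WT libraries, 127 and 156 in those of ck2ts, and 70.9 and 70.7 in those of spt6-7SA. The 3 groups did not overlap. The WT mean was 2.69-fold above that of spt6-7SA and 1.35-fold above that of ck2ts. The log2 fold change was -1.43 ± 0.11 (edgeR adjusted p = 2.1e-04) in spt6-7SA and -0.43 ± 0.11 (edgeR adjusted p = 0.0094) in ck2ts. Between the mutants the difference was -0.999 ± 0.11 (edgeR adjusted p = 3.3e-04).

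ADE12, which encodes adenylosuccinate synthase and so opens the AMP branch, had 188 and 207 CPM in the WT libraries, 175 and 199 in those of ck2ts, and 141 and 149 in those of spt6-7SA. WT and ck2ts overlapped and spt6-7SA lay below both. It fell in spt6-7SA by 0.45 ± 0.10 on the log2 scale (edgeR adjusted p = 0.0083), a call not made without spt6-7SA replicate 1 (-0.40, edgeR adjusted p = 0.070, the highest over 12 other settings). In ck2ts the log2 fold change was -0.08 ± 0.10 (edgeR adjusted p = 0.50). On the 5′ end part alone it was -0.60 ± 0.13 and passed (edgeR adjusted p = 0.012), beside a median of -0.12 over all genes on that part. On the 3′ end part it was -0.07 (edgeR adjusted p = 0.82). The 7 ADE genes together summed to 1777 and 1875 CPM in the WT libraries, 1347 and 1517 in those of ck2ts, and 1413 and 1494 in those of spt6-7SA, so both mutants lay below WT and overlapped each other.

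**Figure D2:**
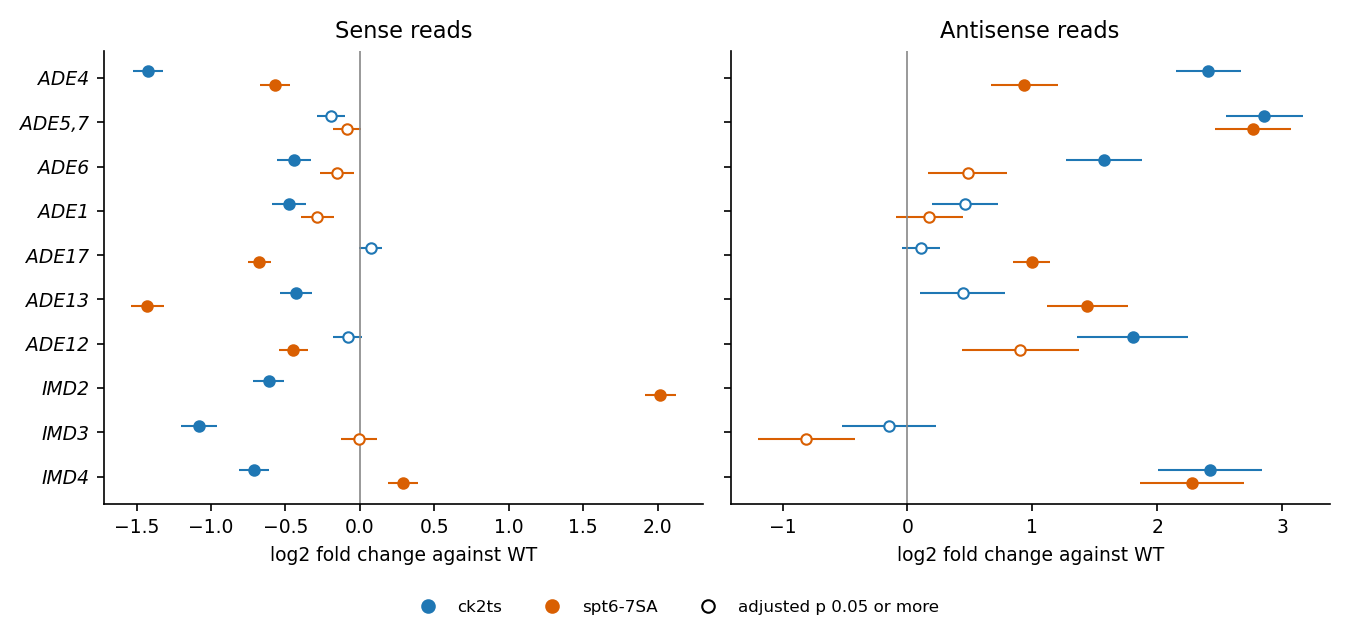
Log2 fold change against WT (x axis) of the sense and antisense reads of each gene in ck2ts and spt6-7SA, with bars of 1 standard error from edgeR. Filled points passed at an adjusted p of 0.05 and open points did not; antisense reads of IMD2 were too few to test. On the sense side IMD2 in spt6-7SA (2.02) and ADE13 in spt6-7SA (-1.43) lie at opposite ends of the values in that mutant, and no antisense value that passed is below 0 (with antisense totals as library sizes, ADE17 in ck2ts is at -0.43).

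IMD2, the inducible IMP dehydrogenase gene, had the largest change of the 10 and moved in opposite directions in the mutants. It had 48.6 and 54.9 CPM in the WT libraries, 31.8 and 35.8 in those of ck2ts, and 205 and 214 in those of spt6-7SA. The 3 groups did not overlap, and the mean of spt6-7SA was 4.05-fold above WT and 6.20-fold above ck2ts. The log2 fold change was 2.02 ± 0.10 (edgeR adjusted p = 6.7e-05) in spt6-7SA and -0.61 ± 0.10 (edgeR adjusted p = 0.0012) in ck2ts. Between the mutants it was 2.63 ± 0.11 (edgeR adjusted p = 9.8e-06). Over 12 other settings and left-out libraries the rise in spt6-7SA ran from 1.92 to 2.11 and passed in each.

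IMD2 also rose in spt6-7SA on its end parts alone. The extent of these parts is not given in the sources used here, so shared stretches within them could not be counted. In the 3′ part there were 228 and 243 reads in the WT libraries, 151 and 177 in those of ck2ts, and 1590 and 1910 in those of spt6-7SA. The 5′ part held 338 and 252 reads in the WT libraries, 171 and 166 in those of ck2ts, and 1620 and 1513 in those of spt6-7SA. The log2 fold change in spt6-7SA was 2.89 ± 0.23 on the 3′ part (edgeR adjusted p = 3.9e-04), 2.44 ± 0.14 on the 5′ part (edgeR adjusted p = 7.8e-04) and 2.66 ± 0.15 on both (edgeR adjusted p = 7.2e-05). As ratios of mean CPM these were 7.38-fold on the 3′ part and 5.44-fold on the 5′ part. The fall in ck2ts did not pass on the 3′ part, where the log2 fold change was -0.32 ± 0.23 (edgeR adjusted p = 0.28), and passed on the 5′ part (-0.59 ± 0.14, edgeR adjusted p = 0.017). In ck2ts the median over all genes was -0.12 on the 5′ part and 0.02 on the 3′ part. The end parts were chosen for this after seeing the data.

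Over the whole gene, where reads may be shared, the values of the paralog copy moved with those of IMD2. YAR073W had 19.1 and 20.3 CPM in the WT libraries, 13.7 and 13.8 in those of ck2ts, and 77.7 and 83.2 in those of spt6-7SA. Its log2 fold change was 2.03 ± 0.09 (edgeR adjusted p = 5.6e-05) in spt6-7SA and -0.52 ± 0.09 (edgeR adjusted p = 0.0013) in ck2ts. Its own 5′ part held 17 and 9 reads in the WT libraries, 8 and 12 in those of ck2ts, and 61 and 65 in those of spt6-7SA. That was 0.767% to 1.61% of the reads of the gene. The median was 8.08% for single-exon genes of 1000 to 1500 bases with many reads, and IMD2 itself had 7.92% to 11.9%. The whole-gene values of YAR073W can therefore not be taken as its own level. As ratios of mean CPM this 5′ part was 5.09-fold WT in spt6-7SA and 0.940-fold WT in ck2ts. The ck2ts and WT libraries overlapped there, so the fall in ck2ts was not seen on this part. How many YAR073W reads began in IMD2 was not tested. With IMD2, YAR073W and YAR075W summed, the log2 fold change was 2.02 ± 0.10 in spt6-7SA and -0.58 ± 0.10 in ck2ts, both past the threshold (edgeR adjusted p = 6.9e-05 and 0.0012). This sum was added after seeing the data.

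IMD3 and IMD4, the abundant copies, fell in ck2ts. IMD3 had 671 and 663 CPM in the WT libraries, 286 and 346 in those of ck2ts, and 661 and 666 in those of spt6-7SA. The ck2ts libraries lay below all others, and WT and spt6-7SA overlapped. The log2 fold change was -1.08 ± 0.12 (edgeR adjusted p = 1.7e-04) in ck2ts and -0.01 ± 0.12 (edgeR adjusted p = 0.96) in spt6-7SA. On the end parts of IMD3 the fall in ck2ts was 1.20 ± 0.15 on the log2 scale (edgeR adjusted p = 2.4e-04).

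IMD4 had 690 and 657 CPM in the WT libraries, 408 and 416 in those of ck2ts, and 828 and 817 in those of spt6-7SA, with no overlap between the groups. It fell in ck2ts by 0.71 ± 0.10 on the log2 scale (edgeR adjusted p = 5.7e-04). In spt6-7SA it was higher by 0.29 ± 0.10, close to the threshold (edgeR adjusted p = 0.045). That call was not made on the end parts (0.04, edgeR adjusted p = 0.80), with DESeq2's size factors (0.26, adjusted p = 0.058), or without WT replicate 1 or 2 (0.31 and 0.25), spt6-7SA replicate 1 or 2 (0.28 and 0.30) or ck2ts replicate 2 (0.28). Over 12 other settings the adjusted p ran from 0.0028 to 0.20. The 2 end parts of IMD4 moved in opposite directions in spt6-7SA. As log2 ratios of mean CPM to WT they were -0.48 on the 5′ part and 0.36 on the 3′ part, with no overlap of the libraries on either. The intron of IMD4, which holds the snoRNA gene snR54, is outside the exons counted here.

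**Figure D3:**
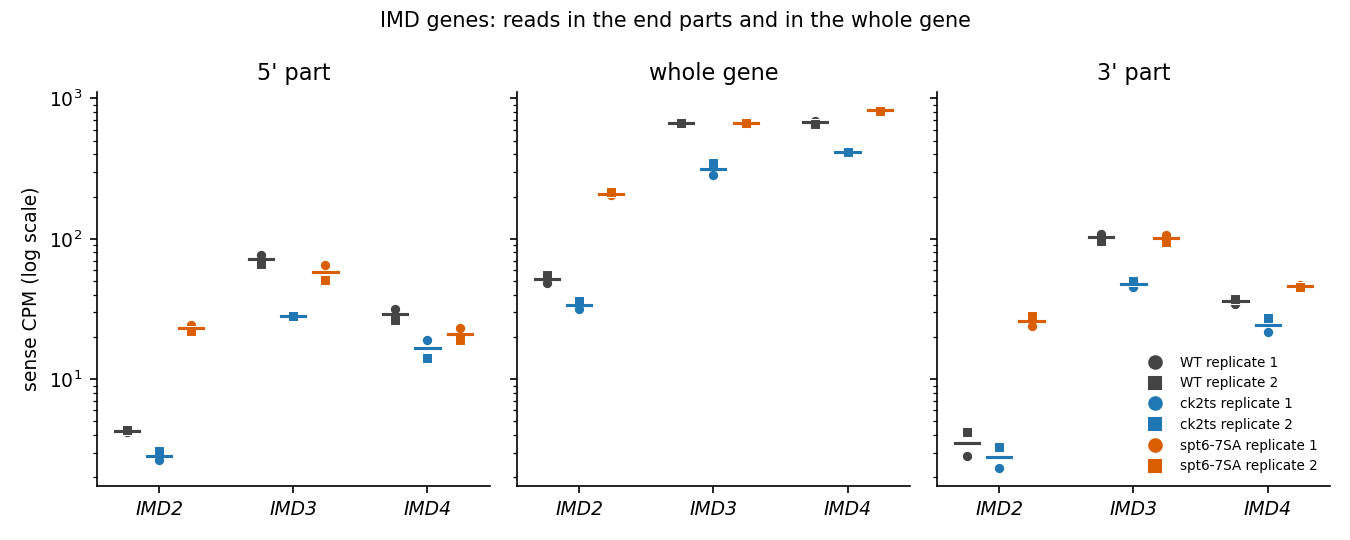
Sense level (CPM, log axis) of IMD2, IMD3 and IMD4 in each library from reads of the 5′ part, the whole gene and the 3′ part. Points are libraries, circles replicate 1 and squares replicate 2, and bars are group means. IMD2 in spt6-7SA stands above WT in all panels (23.9 and 28.0 CPM against 2.84 and 4.19 on the 3′ part). The 5′ part of IMD4 is lower in spt6-7SA than in WT (23.0 and 18.9 CPM against 31.8 and 26.6).

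IMD2 made up a larger share of the family's reads in spt6-7SA. Of the summed CPM of IMD2, IMD3, IMD4, YAR073W and YAR075W, IMD2 accounted for 3.39% and 3.92% in the WT libraries, 4.28% and 4.39% in those of ck2ts, and 11.4% and 11.9% in those of spt6-7SA. The sum itself was 1434 and 1401 CPM in the WT libraries, 742 and 816 in those of ck2ts, and 1792 and 1803 in those of spt6-7SA. It fell in ck2ts by 0.86 ± 0.12 on the log2 scale (edgeR adjusted p = 4.6e-04) and was higher in spt6-7SA by 0.34 ± 0.12, close to the threshold (edgeR adjusted p = 0.042). The sum was added after seeing the data and was not refitted with libraries left out.

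Between the mutants, 4 of the 10 genes were higher in spt6-7SA than in ck2ts (ADE4, IMD2, IMD3 and IMD4), 3 were lower (ADE13, ADE17 and ADE12) and 3 did not pass. Among all genes, 27.7% were higher and 24.7% lower. ADE4 was higher by 0.85 ± 0.10 on the log2 scale (edgeR adjusted p = 4.3e-04), IMD3 by 1.07 ± 0.12 (edgeR adjusted p = 3.6e-04) and IMD4 by 0.997 ± 0.10 (edgeR adjusted p = 2.5e-04). ADE12 was lower by 0.37 ± 0.10 (edgeR adjusted p = 0.017), a call not made without ck2ts replicate 2 (-0.27), spt6-7SA replicate 1 (-0.32) or spt6-7SA replicate 2 (-0.41). With the replicate block, ADE1 (0.19, edgeR adjusted p = 0.043) and ADE6 (0.29, edgeR adjusted p = 0.017) also passed, and without ck2ts replicate 2 so did ADE6 (0.39).

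The list of other purine synthesis genes held the GMP synthetase gene GUA1, ADE2, ADE8 and ADE16. It also held YAR073W, the shorter paralog copy of IMD2 (1212 bases against 1572). Of these 5, 3 fell in ck2ts and 0 rose, while spt6-7SA had 3 that fell and 2 that rose. YAR073W was among those that fell in ck2ts and those that rose in spt6-7SA. Its reads may be shared with IMD2, so it does not count as a gene apart from IMD2. Of all genes 32.3% fell and 32.5% rose in ck2ts, and 24.1% fell and 26.7% rose in spt6-7SA. The list medians were -0.50 and -0.29 on the log2 scale, against 0.02 over all genes in both comparisons. GUA1, which acts next after IMP dehydrogenase, ranged from 822 to 842 CPM in WT, from 289 to 325 in ck2ts and from 571 to 600 in spt6-7SA. The 3 groups did not overlap, and the log2 fold changes were -1.44 ± 0.11 and -0.51 ± 0.11 (edgeR adjusted p = 3.2e-05 and 0.0068). ADE8 fell by 0.50 and 0.34 on the log2 scale (edgeR adjusted p = 8.6e-04 and 0.0086), and ADE2 rose in spt6-7SA by 0.31 ± 0.08 (edgeR adjusted p = 0.019).

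Genes for PRPP and one-carbon units, which feed the chain, numbered 13. In ck2ts 8 fell and 3 rose, and in spt6-7SA 7 fell and 0 rose, with medians of -0.42 and -0.34. Over all genes the ck2ts shares were 32.3% and 32.5% and the spt6-7SA shares 24.1% and 26.7%, and both medians 0.02. PRS1, a PRPP synthetase subunit gene, fell by 1.51 and 1.90 on the log2 scale (edgeR adjusted p = 1.6e-05 and 5.9e-05), from a mean of 342 CPM in WT to 120 in ck2ts and 91.5 in spt6-7SA. MIS1, a mitochondrial one-carbon enzyme gene, fell from 508 to 185 and 315. The glycine cleavage genes differed between the mutants: GCV1 had a mean of 49.4 CPM in WT, with 140 for ck2ts and 47.4 for spt6-7SA, and GCV3 had 132, 120 and 48.0. GCV1 rose in ck2ts and GCV3 fell in spt6-7SA.

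Purine salvage and interconversion was covered by 16 genes, of which 11 fell and 3 rose in ck2ts, and 9 fell and 2 rose in spt6-7SA, with medians of -0.86 and -0.38. The shares of all genes that fell and rose were 32.3% and 32.5%, and 24.1% and 26.7%, with medians of 0.02. APT1, the adenine phosphoribosyltransferase gene, had a mean of 218 CPM in WT, with 58.9 for ck2ts and 133 for spt6-7SA. HPT1, its counterpart for hypoxanthine and guanine, had 290.5, 128 and 141. MEU1, which returns adenine from methylthioadenosine, had 220, 90.3 and 162. YNK1, the nucleoside diphosphate kinase gene, rose from 55.1 to 183 and 159. APT1, HPT1 and MEU1 fell in both mutants.

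Histidine synthesis also starts from PRPP and releases an intermediate of the purine chain. Of its 6 listed genes, 4 fell in ck2ts and 1 in spt6-7SA, with medians of -1.07 and -0.01, beside falls in 32.3% and 24.1% of all genes and medians of 0.02. HIS1 fell in both (181, 57.0 and 96.2 CPM in WT, ck2ts and spt6-7SA), and HIS2, HIS6 and HIS7 fell in ck2ts. Of the 3 regulators, BAS1 fell in both mutants (147, 59.9 and 99.7 CPM), PHO2 rose in both (24.3, 39.8 and 37.3), and GCN4 fell in spt6-7SA (614, 657 and 454). BAS1 had log2 fold changes of -1.29 ± 0.09 in ck2ts and -0.56 ± 0.09 in spt6-7SA (edgeR adjusted p = 2.7e-05 and 0.0024).

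Of 5 listed factors of early termination and elongation, 4 fell in ck2ts, and 3 fell and 1 rose in spt6-7SA, with medians of -0.62 and -0.36. Of all genes 32.3% fell in ck2ts, and 24.1% fell and 26.7% rose in spt6-7SA, with medians of 0.02. SEN1, the helicase of the early termination complex, fell in both (433, 281 and 337 CPM), as did NRD1 (216, 124 and 141). DST1, the elongation factor TFIIS, fell in ck2ts and rose in spt6-7SA (52.4, 43.2 and 65.5 CPM, edgeR adjusted p = 0.027 and 0.020). SDT1, a pyrimidine nucleotidase gene known as a suppressor of the loss of TFIIS, fell in both (51.7, 30.9 and 26.5).

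Antisense reads were few beside sense reads, at most 5.37% of the reads of each of the 10 genes except ADE17. Of the 9 genes that could be tested, 5 rose on the antisense strand in ck2ts (ADE4, ADE5,7, ADE6, ADE12 and IMD4), and 0 fell. In spt6-7SA 5 rose (ADE4, ADE5,7, ADE13, ADE17 and IMD4) and 0 fell. Of the 5496 genes tested on this strand, 50.2% rose and 11.9% fell in ck2ts, and 31.9% rose and 9.53% fell in spt6-7SA. The median antisense log2 fold change was 1.57 over the 9 and 0.72 over all genes in ck2ts, and 0.93 and 0.33 in spt6-7SA. When antisense reads were scaled by their own totals, the median over all genes moved to 0.17 in ck2ts and 0.03 in spt6-7SA. The genes that rose and fell then numbered 1977 and 1395 in ck2ts, against 2759 and 655, and 1313 and 1049 in spt6-7SA, against 1753 and 524. On that scale ADE17 in ck2ts (-0.43, edgeR adjusted p = 0.030) and IMD3 in spt6-7SA (-1.09, edgeR adjusted p = 0.027) passed as lower. IMD2 had 1 to 16 antisense reads per library and was left out. None of the 10 genes overlaps a gene on the other strand.

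ADE5,7 had the largest antisense rise of the 9 in both mutants. It had 25 and 32 antisense reads in the WT libraries, 241 and 128 in those of ck2ts, and 181 and 206 in those of spt6-7SA, or 0.312 and 0.552 CPM, 3.73 and 2.36, and 2.72 and 3.02. Both mutants were above WT and overlapped each other. The log2 fold changes were 2.86 ± 0.31 (edgeR adjusted p = 1.2e-06) and 2.77 ± 0.30 (edgeR adjusted p = 5.1e-06). The 5′ part held 40.7% to 59.7% of its antisense reads over the 6 libraries and the 3′ part at most 7.47%.

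ADE4 had 40 and 32 antisense reads in the WT libraries, 178 and 153 in those of ck2ts, and 64 and 71 in those of spt6-7SA. The groups did not overlap. Its antisense rise was 2.41 ± 0.26 on the log2 scale in ck2ts (edgeR adjusted p = 1.2e-06) and 0.93 ± 0.27 in spt6-7SA (edgeR adjusted p = 0.011). The call in spt6-7SA was not made without WT replicate 1 (0.84, edgeR adjusted p = 0.094) or spt6-7SA replicate 1 or 2 (0.99 and 0.88). The antisense share of its reads was 0.375% and 0.384% in the WT libraries, 5.37% and 4.93% in those of ck2ts, and 1.07% and 1.06% in those of spt6-7SA, so the group with the lowest sense level had the highest antisense level.

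ADE13 and ADE17 rose on the antisense strand in spt6-7SA, where their sense reads fell. ADE13 had 55 and 39 antisense reads in the WT libraries, 80 and 32 in those of ck2ts, and 106 and 143 in those of spt6-7SA, a log2 fold change of 1.44 ± 0.32 in spt6-7SA (edgeR adjusted p = 0.0024). ADE17 had 412 and 350, 381 and 331, and 761 and 735, a log2 fold change of 0.99 ± 0.15 in spt6-7SA (edgeR adjusted p = 1.0e-04). In ck2ts their log2 fold changes were 0.44 and 0.11, which did not pass (edgeR adjusted p = 0.27 and 0.56). That of ADE13 passed without ck2ts replicate 2 (0.85). ADE17 had the largest antisense share of the 10, 4.19% and 4.78% in the WT libraries, 4.49% and 4.67% in those of ck2ts, and 13.3% and 12.7% in those of spt6-7SA. ASI1, which points toward ADE17 from 294 bases past its end, rose in both mutants (0.56 and 0.63 on the log2 scale). The 3′ part of ADE17 held 12.6% to 18.6% of its antisense reads over the libraries. Whether ASI1 had a part in them was not tested.

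IMD4 had 10 and 18 antisense reads in the WT libraries, 89 and 46 in those of ck2ts, and 64 and 73 in those of spt6-7SA, and rose by 2.42 ± 0.42 and 2.28 ± 0.42 on the log2 scale (edgeR adjusted p = 1.2e-04 and 4.7e-04). Over the left-out libraries the ck2ts value ran from 1.84 to 3.15, the latter without WT replicate 2. That of spt6-7SA ran from 1.69 without WT replicate 1 to 3.01 without WT replicate 2. Of these reads the 5′ part held 22.5% and 21.7% for ck2ts, and more for spt6-7SA, with 46.9% and 45.2%. ADE6 rose in ck2ts by 1.57 ± 0.30 (edgeR adjusted p = 3.4e-04) and ADE12 by 1.80 ± 0.44 (edgeR adjusted p = 0.0024). In spt6-7SA their values were 0.48 and 0.90 (edgeR adjusted p = 0.24 and 0.14). For ADE1 and IMD3 neither mutant passed, with log2 fold changes of 0.46 and 0.17 for ADE1 and -0.15 and -0.81 for IMD3. The 3′ part held 76.0% to 91.7% of the antisense reads of ADE1 and 58.1% to 90.9% of those of IMD3. Convergent neighbours end 100 bases past ADE1 (KIN3) and 218 bases past IMD3 (CNA1). Others end 199 bases past IMD4 (CMP2), 281 bases past ADE12 (ALG9) and 395 bases past ADE6 (ERG25). The 3′ parts of IMD4, ADE12 and ADE6 held at most 8.70%, 27.3% and 26.7% of antisense reads.

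**Figure D4:**
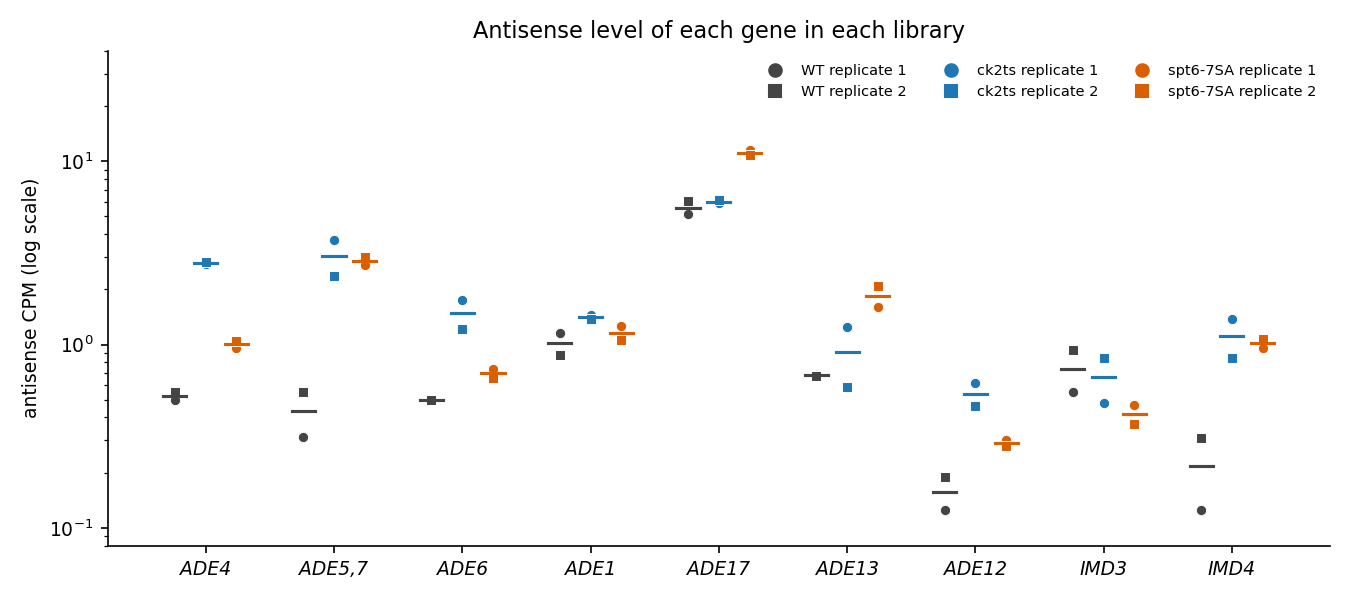
Antisense level (CPM, log axis) of the 9 genes tested, in each library. Points are libraries, circles replicate 1 and squares replicate 2, and bars are group means. Both mutants lie above WT for ADE4, ADE5,7, ADE6, ADE12 and IMD4, though ADE6 and ADE12 did not pass in spt6-7SA. The spt6-7SA libraries lie above the other groups for ADE13 and ADE17 (11.4 and 10.8 CPM).

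Tested as the change of antisense relative to sense, 6 of the 9 genes rose in ck2ts (ADE1, ADE4, ADE5,7, ADE6, ADE12 and IMD4) and 6 in spt6-7SA (ADE4, ADE5,7, ADE12, ADE13, ADE17 and IMD4), with 0 falling in either. Among all 5419 genes tested this way, 47.1% rose and 14.4% fell in ck2ts, and 28.8% rose and 12.3% fell in spt6-7SA. The largest values were 3.83 ± 0.31 for ADE4 in ck2ts (edgeR adjusted p = 2.6e-08) and 2.86 ± 0.48 and 2.86 ± 0.39 for ADE5,7 and ADE13 in spt6-7SA (edgeR adjusted p = 1.4e-04 and 2.2e-05). Without ck2ts replicate 2, ADE13 (1.45) and IMD2 (2.70) also passed in ck2ts. The few antisense reads of IMD2 passed the filter only then. Without WT replicate 2, IMD3 passed in ck2ts (1.33, edgeR adjusted p = 0.049). IMD4 in ck2ts (3.12) was at 2.49 without WT replicate 1 and 3.86 without WT replicate 2. In ck2ts the call of ADE1 (0.95) was not made without WT replicate 2 (0.76) or ck2ts replicate 1 (0.78). In spt6-7SA the calls of IMD4 (2.01) and ADE12 (1.35) were not made without WT replicate 1 (1.38 and 1.12), spt6-7SA replicate 1 (2.10 and 1.25) or spt6-7SA replicate 2 (1.93 and 1.45), and IMD4 was at 2.75 without WT replicate 2.

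Between the mutants, antisense reads of ADE13 and ADE17 were higher in spt6-7SA and those of ADE4 and ADE6 lower, with 13.8% of all genes higher and 34.4% lower. The log2 differences were 0.996 ± 0.32, 0.89 ± 0.15, -1.47 ± 0.24 and -1.09 ± 0.29 (edgeR adjusted p = 0.018, 1.9e-04, 1.3e-04 and 0.0063). ADE13 was at 1.63 without ck2ts replicate 1, and did not pass without ck2ts replicate 2 (0.57) or spt6-7SA replicate 2 (0.79), nor did ADE6 without spt6-7SA replicate 2 (-1.01). Relative to sense, ADE13 and ADE17 were higher, and ADE4, ADE6 and IMD3 lower, beside 16.1% and 36% of all genes. The value of ADE13 relative to sense (2.01) was 2.77 without ck2ts replicate 1 and 1.41 without ck2ts replicate 2. IMD3 relative to sense (-1.71) did not pass without spt6-7SA replicate 1 (-1.89), spt6-7SA replicate 2 (-1.53) or ck2ts replicate 2 (-1.43), and ADE6 (-1.36) did not without ck2ts replicate 1 (-0.99), spt6-7SA replicate 1 (-1.47) or spt6-7SA replicate 2 (-1.25). IMD4 (-1.10) passed without WT replicate 1 or 2 (-1.11 in each).

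Sense reads were also compared between the 3′ and the 5′ end part of the 9 genes of at least 1000 bp. None changed in any of the 3 comparisons by edgeR at an adjusted p of 0.05, beside 2.69%, 0.762% and 1.38% of all 3414 genes. At an unadjusted p under 0.05 there were 1 in ck2ts, 2 in spt6-7SA and 0 between the mutants. The share of all genes at that threshold was not counted, so these counts cannot be set against a genome-wide rate. With the replicate block, a fit added after seeing the data, 2 of the 9 passed in ck2ts, 3 in spt6-7SA and 2 between the mutants, beside 18.4%, 13.4% and 10.2% of all genes in the same fit. These were ADE12 (0.52, edgeR adjusted p = 0.0020) and ADE5,7 (0.43, 0.0056) in ck2ts. In spt6-7SA they were IMD4 (0.84, edgeR adjusted p = 1.3e-05), IMD2 (0.47, 0.028) and ADE5,7 (0.34, 0.036). Between the mutants they were IMD4 (0.58, edgeR adjusted p = 0.0016) and ADE12 (-0.37, 0.048). In the first exon of IMD4 the 5′ part held 14.2% and 13.2% of the sense reads in the WT libraries, 14.5% and 11.5% in those of ck2ts, and 8.995% and 7.63% in those of spt6-7SA, where the share was below that of the other libraries.

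Among 5235 other protein-coding genes with a mean of at least 10 CPM, the 5 with a profile over the 6 libraries closest to the mean of the 7 ADE genes were KCH1, CWH43, GAS3, DLD2 and NPY1. Their Euclidean distances on centred log2(CPM + 1) were 0.0771 to 0.105. The 7 ADE genes did not share 1 profile. Their log2 fold changes ran from -1.42 (ADE4) to 0.07 (ADE17) in ck2ts. In spt6-7SA they ran from -1.43 (ADE13) to -0.09 (ADE5,7). Distances to their mean are therefore not comparable with distances to a single gene. Closest to IMD2 were MET6, MAN2, BIO2, DAM1 and BNA2, at distances of 0.743 to 1.09. MET6, the methionine synthase gene, had a mean of 82.8 CPM in WT, with 55.7 for ck2ts and 227 for spt6-7SA, and the IMD2 means were 51.8, 33.8 and 210.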

How the data were processed

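The authors sequenced total RNA, depleted of ribosomal RNA, as stranded 50-base single-end reads, per the labels' protocols. Trimmomatic, BWA, SAMtools and build R64 are named in the submitters' processing notes, with no version. The authors deposited raw counts per exon for sense and antisense reads, in all and in a 5′ and a 3′ end part whose extent is not given in the sources used here. How reads with several matches were counted is likewise not given in the sources used here. Counts of 7553 exons were summed to 7126 genes.

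Groups were tested with edgeR 4.0.16 (quasi-likelihood, robust, TMM, filterByExpr at 10 counts, Benjamini-Hochberg over all genes, R 4.3.3) in 1 fit of all 6 libraries. Antisense reads used sense library sizes, and the 1091 genes with an opposite-strand overlap were not tested. Antisense against sense, and 3′ against 5′ parts (genes of at least 1000 bp, 20 reads per part), were tested as interactions with the library as a term. Fits were tested on simulated data. Depth was 56307173 to 83375420 sense reads. Deviations of same-numbered libraries from their group means correlated (0.51, 0.36 and 0.44). The main tests did not use this pairing. Values from fits blocked on the replicate number are given where they change a call. Alternatives included DESeq2 1.42.0. Sequences came from RefSeq R64 with Biopython 1.88, and other work used Python 3.11.15, pandas 2.3.3 and matplotlib 3.10.9.

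All 10 genes are named. Of each other list, at most 4 passing genes with the smallest p against WT are named. ADE16, ATP6, ATP8, COX2 and VAR1 were named outside that rule, after their values were seen. The genes and lists were chosen with earlier results of these data known.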

Additional observations from a re-analysis of the deposited data

How the results depend on the processing

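Of 360 sense values recomputed under other scalings, filters, tests and left-out libraries, 338 kept their direction and side of the threshold, 11 lost the call, 9 gained it and 2 changed sign. For the antisense strand 250 of 270 stayed, for antisense against sense 169 of 189, and for the comparison of end parts 49 of 49. The end-part values counted here are only those of the 7 changes that passed with the replicate block. That block is not among their settings, and all 7 gained the call with it. The cause of the changes below was not tested.

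Of the 10 genes, 7 were called on the sense strand in ck2ts, and 4 on the 3′ part alone. On that part 1628 of all 6339 genes tested fell and 1640 rose, against 2186 and 2201 of 6776 on the whole gene. Leaving out 1 library moved the sense count of the 10 most in spt6-7SA against WT. In that comparison fewer of all genes passed whenever a WT or spt6-7SA library was left out. For antisense against sense the count was 6 in each mutant against WT. Between the mutants the antisense count was 4 and that of antisense against sense 5. Both were lowest without spt6-7SA replicate 2, where fewer of all genes passed too. The replicate block raised the count for the 3′ against the 5′ part from 0 to 2 in ck2ts, 3 in spt6-7SA and 2 between the mutants, and over all 3414 genes from 2.69%, 0.762% and 1.38% to 18.4%, 13.4% and 10.2%. Besides the calls given with the block above, it changed no other call on the sense or antisense strand.

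On the sense strand the sign changed for IMD3 in spt6-7SA with upper quartile scaling (0.032) and with the copies summed (0.34), for IMD4 in spt6-7SA on the 5′ part (-0.48), and for ADE12 in ck2ts over the left-out libraries (-0.19 to 0.0035). With antisense totals as library sizes the antisense value was -0.10 for ADE1, -0.12 for ADE13 and -0.43 for ADE17 in ck2ts, -0.14 for ADE1 in spt6-7SA, and 0.17 for ADE5,7 and 0.12 for IMD4 between the mutants. Over the left-out libraries antisense values ran from -0.21 to 0.85 for ADE13, -0.61 to 0.26 for IMD3 and -0.017 to 0.22 for ADE17 in ck2ts, and from -0.38 to 0.27 for ADE5,7 and -0.44 to 0.25 for IMD4 between the mutants. For antisense against sense they ran from -0.064 to 0.13 for ADE17 in ck2ts and from -0.55 to 0.23 for ADE5,7 between the mutants.

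With 2 libraries a group, a difference near the threshold can hinge on 1 of them. Antisense values of ADE12, IMD4 and IMD2 rest on few reads.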
